A study of Mus musculus with 24 samples.

Results

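The Hox cluster genes are the rows of a mouse brain count table whose symbols read Hox, a cluster letter from a to d and a paralogue number, and 39 of the table's 40836 genes met that rule. The table holds 24 libraries of polyadenylated brain RNA, named by an E code, a time code and a number: E4-05, E4-10, E4-15, E3-05, E3-10 and E3-15, with 4 libraries each. The codes are not explained in the labels, which name no strain, age or treatment, and do not say that each library is 1 animal. The series title concerns ApoE4, microglia, Asxl1 and histone methylation, and the sample titles name a month from January to June for each library and number the 4 libraries of a month, E4 and E3 alike, as biological replicates. The members were compared between the 8 libraries whose column number in the table is a multiple of 3 (E3-05 2, E4-05 3, E3-10 1, E4-10 2, E3-10 4, E4-15 1, E3-15 3 and E4-15 4) and the other 16, to see how far caudally along the body axis the sampled tissue reached. E3-10 and E4-15 held 2 of these 8 libraries and the other groups 1 each. That the multiples of 3 go with brain region was noticed in earlier results of these same data, so the comparison describes that split and is not an independent test of it.

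Hox genes encode homeodomain transcription factors that give cells their position along the head-to-tail axis. In each cluster the genes lie in the order of their paralogue numbers: those at the 3′ end, with low numbers, are expressed up to a rostral limit in the hindbrain, and those at the 5′ end, with high numbers, only in the spinal cord and the hind parts of the body. The forebrain, the midbrain and the first hindbrain segment, which gives rise to the cerebellum, form without Hox expression, while neurons of the medulla keep a Hox code into adult life. The domains are nested, so a piece of tissue is placed by the highest paralogue number it expresses.

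Cluster a, on chromosome 6, had 11 members, cluster b, on chromosome 11, had 10, and clusters c (chromosome 15) and d (chromosome 2) had 9 each. Total counts ran from 37.4 M to 99.5 M (M, mega) per library with a median of 48.8 M, and from 39.4 M to 65.7 M in the 8 libraries. Levels are CPM, counts scaled to a common library total of 1 M after TMM factors were applied. Of the 39 members, 21 passed edgeR's filter on low counts (7 of cluster a, 7 of b, 3 of c and 4 of d). All but Hoxd1 passed only through the 8 libraries in which they were high. Hoxd1 also had up to 18 counts in libraries of the 16, enough to pass without the 8. The 18 that did not pass comprised all 16 members with paralogue numbers 9 to 13, Hoxb1 and Hoxc8. None of these 18 exceeded 20 counts or 0.34 CPM in any library. Hoxa11, Hoxb13, Hoxc11 and Hoxc12 had 0 counts in all 24, which allows up to 3 counts in all (counting error only, each count taken as independent).

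The Hox signal was held almost entirely by the multiples of 3. There the highest paralogue number at a median of 0.5 CPM was 8, and at 0.1 CPM it was 9, through Hoxb9. The summed CPM of all members was 35.6 at the lowest, 61.4 at the median and 288 at the highest in the 8 libraries, against 0.137, 0.545 and 1.16 in the other 16. Summed over libraries, this came to 45015 counts in the 8 and 445 in the 16. Members at a median of 0.5 CPM or more, the level set here for detection, numbered 18 of 39 in the 8 libraries and 0 of 39 in the 16. In every one of the 8 libraries the highest paralogue number at this level was 8, with 15 to 21 members detected per library. Members 9 to 13 together had 140 counts in the 8 libraries, 0.311% of their Hox counts, and 47 in the 16.

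**Figure D1:**
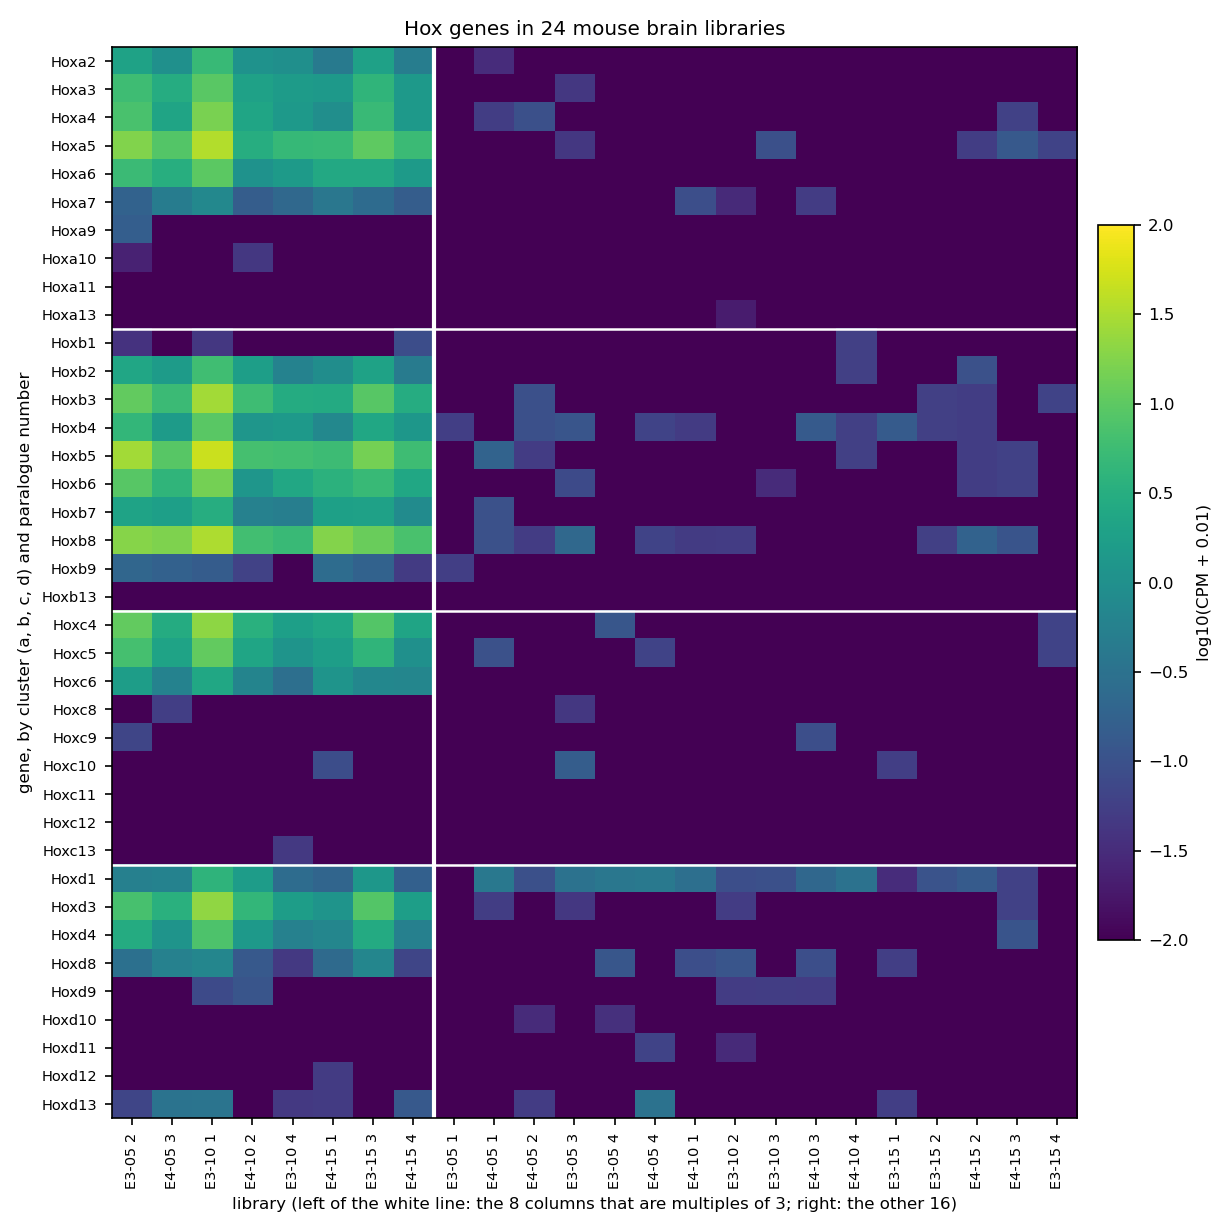
Level of 38 of the 39 Hox genes (rows, by cluster and paralogue number) in each of the 24 libraries (columns), as log10(CPM + 0.01), with the 8 multiples of 3 left of the white line and the other 16 right of it. The darkest cells are 0 CPM. In the 8 libraries no member above paralogue number 8 reaches 0.5 CPM, and some members below it, such as Hoxb1 and Hoxc8, have dark cells too. In the 16, 0 members reach 0.5 CPM.

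All 21 members that passed the filter were higher in the 8 libraries at an adjusted p under 0.05 (edgeR's quasi-likelihood test with the 6 labelled groups in the model, Benjamini-Hochberg over 20437 genes), where 30.1% of all genes tested were. Their median log2 fold change was 8.37 (range 2.46 to 10.42), beside 0.04 for all genes tested. For 18 of the 21, the lowest of the 8 libraries lay above the highest of the 16, which held for 5.97% of all genes. The 3 that overlapped included Hoxd1 and Hoxd8. Hoxa6 and Hoxc6 had 0 counts in all 16 libraries. With 3 counts over the group as the floor, they were at least 909-fold and at least 267-fold higher in the 8. This floor takes each count as independent, and pairs counted as 2 reads would raise it and lower both folds. With both members at these bounds the median log2 was 8.24. The filter kept members that were high in the 8 libraries, so neither share speaks for all 39.

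Cluster by cluster, the highest paralogue number at a median of 0.5 CPM in the 8 libraries was 6 for cluster a, 8 for b, 6 for c and 4 for d. At a level of 0.1 CPM it was 7, 9, 6 and 8 in the same order, and at 1 CPM it was 6, 8, 5 and 4. The b cluster thus reached farthest at each of the 3 levels, and the member that moved its limit at 0.1 CPM was Hoxb9. The only member at a median of 0.1 CPM in the 16 libraries was Hoxd1.

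Paralogues 1 and 2 mark the hindbrain segments. Hoxd1, known in the mouse from pain-sensing neurons of the sensory ganglia, was at 0.159, 0.557 and 3.95 CPM (lowest, median and highest) in the 8 libraries and at 0, 0.113 and 0.397 CPM in the 16. The ranges overlapped, and its log2 fold change was 2.70 (SE 0.60, adjusted p = 0.000605). Hoxb1, the identity gene of the fourth hindbrain segment, had 8 counts in 3 of the 8 libraries and 2 counts in 1 of the 16. Hoxb2, a target of the hindbrain factor Egr2, was at 0.458, 1.67 and 5.89 CPM in the 8 and at 0, 0 and 0.0868 CPM in the 16, with no overlap (log2 7.45, SE 0.60, adjusted p = 1.76e-09). Hoxa2, the member with the most rostral limit in the hindbrain, ran from 0.427 to 4.95 CPM in the 8 libraries and had 1 count in the 16.

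Paralogues 3 to 5 belong to the caudal hindbrain and the cervical spinal cord. Hoxb3, which helps pattern motor neurons of the caudal hindbrain, was at 2.76, 5.48 and 28.4 CPM (lowest, median and highest) in the 8 libraries and at 0, 0 and 0.0845 CPM in the 16 (log2 9.05, SE 0.51, adjusted p = 1.26e-11). Hoxc4 was at 1.77, 3.15 and 21.1 CPM in the 8 against 0, 0 and 0.106 CPM in the 16 (log2 9.41, SE 0.51, adjusted p = 8.44e-12). Hoxb5 was the member with the highest mean CPM (not scaled to length), at 5.59, 7.89 and 47.8 CPM in the 8 against 0, 0 and 0.176 CPM in the 16 (log2 9.29, SE 0.52, adjusted p = 1.14e-11). None of the 3 overlapped between the sets. Every member of these 3 paralogue groups passed the filter, 10 in all, and their highest level in any of the 16 libraries was 0.176 CPM. Hoxa5 and Hoxc5, which motor neurons of the phrenic nerve require, reached 35.0 and 11.1 CPM in E3-10 1.

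Paralogues 6 to 8 have their rostral limits near or within the spinal cord, with the b cluster members reaching farther into the hindbrain. Hoxb6 was at 1.24, 3.95 and 14.8 CPM (lowest, median and highest) in the 8 libraries and at 0, 0 and 0.0703 CPM in the 16 (log2 8.51, SE 0.45, adjusted p = 6.15e-12). Hoxb7 was at 0.495, 1.84 and 3.10 CPM in the 8 against 0, 0 and 0.088 CPM in the 16 (log2 7.83, SE 0.52, adjusted p = 1.27e-10). Hoxb8, which in the mouse also marks the progenitors of a subset of microglia, was at 18.9 CPM in E3-05 2, 16.6 in E4-05 3, 31.8 in E3-10 1, 6.15 in E4-10 2, 5.19 in E3-10 4, 17.9 in E4-15 1, 12.0 in E3-15 3 and 7.01 in E4-15 4. In the 16 libraries its highest level was 0.211 CPM, with 40 counts in 9 of them (log2 8.02, SE 0.42, adjusted p = 6.06e-12). Hoxa7 and Hoxd8 had the lowest mean CPM of the members that passed. Hoxa7 was at 0.139, 0.225 and 0.715 CPM in the 8 against 0, 0 and 0.0803 CPM in the 16, with no overlap (log2 4.86, SE 0.59, adjusted p = 5.44e-07). Hoxd8 was at 0.0354, 0.261 and 0.676 CPM in the 8 against 0, 0 and 0.106 CPM in the 16 (log2 3.62, SE 0.71, adjusted p = 0.000173). Hoxc8, which patterns motor pools of the forelimb, had 2 counts in 1 of the 8 libraries and 2 counts in 1 of the 16.

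Paralogues 9 to 13 pattern the thoracic and lumbosacral spinal cord, the limbs and the tail. Hoxb9 had 57 counts in 7 of the 8 libraries, with a median of 0.149 CPM and a highest level of 0.252 CPM, and 2 counts in 1 of the 16. The other members numbered 9 had fewer counts in the 8: Hoxa9 had 10 counts in the 8, all in E3-05 2, Hoxd9 had 10 counts in 2 of the 8 and 8 counts in 3 of the 16, and Hoxc9, which sets the thoracic motor columns, had 4 counts in each set. Hoxc10, a lumbar motor neuron gene, had 4 counts in the 8 and 10 in the 16. Hoxd11 had 0 counts in the 8 and 4 in the 16. Hoxd12 had 2 counts in the 8 and 0 in the 16. Hoxd13, which acts in digits and genital buds, broke this order with 48 counts in 6 of the 8 libraries and 16 counts in 3 of the 16, and its highest levels were 0.34 CPM in the 8 and 0.317 CPM in the 16. It was not tested, and the libraries of the sets overlapped.

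RefSeq sequence before the transcription start was matched by symbol for 22 of the 39 members (24 starts, GRCm38.p6, another build than that of the counts). The windows are shown for Hoxa6, Hoxa7 and Hoxa9, the members over which cluster a ended, and for 3 of the members that hold the motif described next. Each is the 250 bases before the start, read on the gene's strand, from chr6:52208673-52208922 (minus strand), chr6:52218574-52218823 (minus), chr6:52227371-52227620 (minus), chr6:52164832-52165081 (minus), chr11:96365508-96365757 (plus) and chr11:96281655-96281904 (plus). Capitals mark TGATNNAT, the shared site of Hox and Pbx proteins, or TGACAG, the site of Meis and Pknox proteins, on either strand.
Hoxa6: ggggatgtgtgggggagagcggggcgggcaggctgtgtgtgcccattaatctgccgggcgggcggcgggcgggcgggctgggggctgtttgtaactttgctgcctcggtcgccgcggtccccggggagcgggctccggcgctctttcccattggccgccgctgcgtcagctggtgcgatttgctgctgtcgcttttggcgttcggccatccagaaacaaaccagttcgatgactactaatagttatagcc
Hoxa7: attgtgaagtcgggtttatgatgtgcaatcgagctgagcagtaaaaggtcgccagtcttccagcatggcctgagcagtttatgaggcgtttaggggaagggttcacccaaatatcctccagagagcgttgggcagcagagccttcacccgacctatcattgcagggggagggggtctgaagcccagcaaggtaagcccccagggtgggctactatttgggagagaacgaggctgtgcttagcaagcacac
Hoxa9: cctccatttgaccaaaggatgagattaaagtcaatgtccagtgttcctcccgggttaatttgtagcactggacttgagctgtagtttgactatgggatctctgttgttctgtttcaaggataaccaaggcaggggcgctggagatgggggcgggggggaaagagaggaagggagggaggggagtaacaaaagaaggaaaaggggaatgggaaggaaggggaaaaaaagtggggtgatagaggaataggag
Hoxa2: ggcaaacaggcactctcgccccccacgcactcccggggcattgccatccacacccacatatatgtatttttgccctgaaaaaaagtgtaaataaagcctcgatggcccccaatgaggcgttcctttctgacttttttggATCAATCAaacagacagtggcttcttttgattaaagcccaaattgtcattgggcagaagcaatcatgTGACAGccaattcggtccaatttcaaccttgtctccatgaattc
Hoxb1: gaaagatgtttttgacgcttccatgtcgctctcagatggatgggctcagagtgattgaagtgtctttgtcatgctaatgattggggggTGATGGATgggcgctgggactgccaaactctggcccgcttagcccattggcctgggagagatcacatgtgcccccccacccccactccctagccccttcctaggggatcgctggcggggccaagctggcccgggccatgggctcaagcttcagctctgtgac
Hoxb8: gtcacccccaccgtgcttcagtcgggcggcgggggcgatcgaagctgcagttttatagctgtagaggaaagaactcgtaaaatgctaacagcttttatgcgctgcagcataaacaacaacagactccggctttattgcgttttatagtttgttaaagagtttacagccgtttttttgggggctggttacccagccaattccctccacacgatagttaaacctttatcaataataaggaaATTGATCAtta
TGATNNAT was in 4 of the 24 Hox windows (16.7%) and in 7.68% of all 32851 windows of this length; its holders were Hoxa2, Hoxb1, Hoxb8 and the second start of Hoxd11. Of these, Hoxa2 and Hoxb8 were detected in the 8 libraries, and Hoxb1 and Hoxd11 were not. TGACAG was in 2 Hox windows (8.33%), those of Hoxa2 and Hoxa3, and in 15.9% of all windows. No site of one motif overlapped a site of the other in the Hox windows. Hoxa6 had 24 CG dinucleotides in its window, Hoxa7 had 7 and Hoxa9 had 3, beside medians of 12.5 over the Hox windows and 6 over all windows. Members that were not detected also had windows rich in CG, with 35 in that of Hoxa13 and 31 in that of Hoxd13.

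Levels between members were compared as CPM per kb of exon (gene models of another build than the counts). Among the 8 libraries Hoxb8 had the highest median, 5.43 CPM per kb, followed by Hoxa5 at 3.71, Hoxa6 at 2.95, Hoxb5 at 2.83 and Hoxb6 at 2.01 CPM per kb. This order did not hold within libraries: Hoxb8 was above Hoxa5 in 3 of the 8, and Hoxa6 was above Hoxb5 in 2 of the 8. Hoxa5 was above Hoxa6 in 7 of the 8, and Hoxb5 was above Hoxb6 in all 8. At the low end Hoxd8 was at 0.0952 and Hoxa7 at 0.0781 CPM per kb, and Hoxd8 was above Hoxa7 in 3 of the 8. Within cluster b the level per length had a low point at Hoxb7, 1.19 CPM per kb, between Hoxb6 and Hoxb8.

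**Figure D2:**
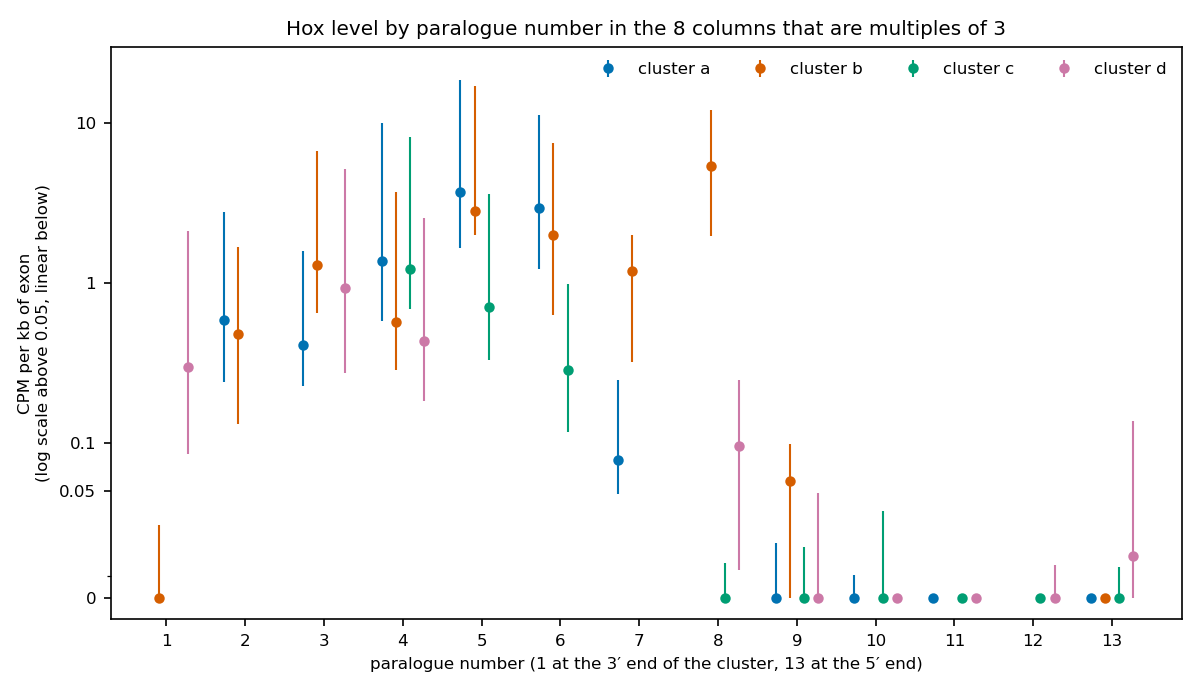
Level per length of 38 of the 39 Hox genes (CPM per kb of exon, log scale above 0.05 and linear below) against paralogue number in the 8 multiples of 3, coloured by cluster, with points at the median and bars from the lowest to the highest library. Clusters a, b, c and d end at different numbers, with Hoxb8 the highest median at 5.43 CPM per kb. Every median from number 9 on is below 0.1, as are those of Hoxb1, Hoxa7, Hoxc8 and Hoxd8.

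The difference between the sets was present within the titled months and within the labelled groups. In 5 of the 6 months every multiple of 3 lay above every other library of that month for all 21 members, and in April, which held 1 multiple of 3 and 3 others, this held for 19, all but Hoxd1 and Hoxd8. Within the 6 labelled groups it held for 21 members in 4 groups, and for 20 in E3-10 (all but Hoxd8) and 20 in E4-15. Within a month or group this rests on 1 or 2 libraries on the side of the multiples of 3, so it is a description.

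Genes of neighbouring territories moved with the same split. All 15 genes of the list for the first hindbrain segment and cerebellum were higher in the 8 libraries (30.1% of all genes were), with a median log2 of 3.96, and the list's summed CPM ran from 1475 to 6794 in the 8 against 251 to 452 in the 16. Of 21 genes of pons and medulla neurons, 15 were higher and 1 lower (27.4% of all genes were lower), with a median log2 of 3.44, and the sum ran from 146 to 1027 CPM against 22.2 to 94.9 CPM. Slc6a5, the glycine transporter of inhibitory neurons in the medulla and spinal cord, was at 76.2, 158 and 622 CPM (lowest, median and highest) in the 8 and at 0.0456, 0.74 and 9.20 CPM in the 16 (log2 7.56, SE 0.53, adjusted p = 2.36e-10). Of 14 forebrain and midbrain genes, 10 were lower and 1 higher, with a median log2 of -2.99. Lhx2, a patterning factor of the cerebral cortex, was at 1.90, 4.08 and 11.4 CPM in the 8 and at 21.4, 49.1 and 66.4 CPM in the 16 (log2 -3.50, SE 0.25, adjusted p = 3.53e-10).

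Of 8 spinal cord and peripheral ganglion genes tested, 4 were higher and 2 lower, with a median log2 of 0.36. Among them Pmp22, a myelin gene of Schwann cells, was at 49.8, 60.3 and 103 CPM in the 8 against 25.8, 32.0 and 60.1 CPM in the 16. Mnx1, the spinal motor neuron factor, did not pass the filter. It reached at most 12 counts (0.20 CPM) in any of the 8 libraries and at most 1 count in any of the 16. In bulk tissue, more cells of a type and more RNA per cell cannot be told apart. Of markers of other material, 8 of 10 choroid plexus genes and 3 of 5 blood genes were higher, with 0 lower in either list, where 30.1% of all genes were higher. The 1 of 7 pituitary genes and 3 of 10 mural and fibroblast genes that were higher did not exceed that share. Their part in the Hox difference was not tested. With the 3 libraries richest in haemoglobin RNA left out, or the 2 richest in growth hormone RNA, 21 of 21 members were again higher.

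Genes for proteins that act with or on Hox genes showed smaller differences between the sets. Of all genes tested, 30.1% were higher and 27.4% lower. Of 9 TALE cofactors, homeodomain proteins that bind DNA beside Hox proteins, 5 were lower and 2 higher, with a median log2 of -0.25. Meis2 was at 40.9, 57.9 and 134 CPM in the 8 and at 75.5, 151 and 252 CPM in the 16 (log2 -1.32, SE 0.25, adjusted p = 0.000102). Meis1, the member of this list with the largest change, differed in the other direction, at 20.1 to 35.9 CPM in the 8 and 2.89 to 9.07 CPM in the 16 (log2 2.36, SE 0.17, adjusted p = 3.33e-10). Of 18 polycomb and trithorax genes, which hold Hox clusters silent or active, 11 were higher and 5 lower, with a median log2 of 0.21. The part that was lower was close to the share over all genes. Asxl1, the polycomb-linked gene of the series title, had a log2 of -0.16 (SE 0.04, adjusted p = 0.000666). Of 13 hindbrain patterning and retinoid genes tested, 3 were higher and 4 lower, neither far from the shares over all genes. Aldh1a1 and Cyp26b1, which make and degrade retinoic acid, were among the higher, at log2 1.43 (SE 0.20, adjusted p = 4.3e-06) and 1.08 (SE 0.12, adjusted p = 2.34e-07).

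The make-up of the Hox signal differed among the 8 libraries as well as its size. Paralogues 6 to 8 gave 26.1% of the summed Hox CPM in E3-05 2, 38.8% in E4-05 3, 22.0% in E3-10 1, 20.9% in E4-10 2, 28.6% in E3-10 4, 53.3% in E4-15 1, 23.5% in E3-15 3 and 33.5% in E4-15 4. The 4 E4 libraries included both the highest, E4-15 1, and the lowest, E4-10 2, and the 4 E3 libraries lay between them. Hoxb3 was at 11.1 CPM in E3-05 2, 5.32 in E4-05 3, 28.4 in E3-10 1, 5.65 in E4-10 2, 2.92 in E3-10 4, 2.76 in E4-15 1, 9.25 in E3-15 3 and 2.97 in E4-15 4. The ratio of Hoxb8 to Hoxb3 was 6.49 in E4-15 1, which had the lowest Hoxb3, and 1.09 in E4-10 2. Hoxb3 spanned 10.3-fold over the 8 libraries and Hoxb8 6.14-fold.

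**Figure D3:**
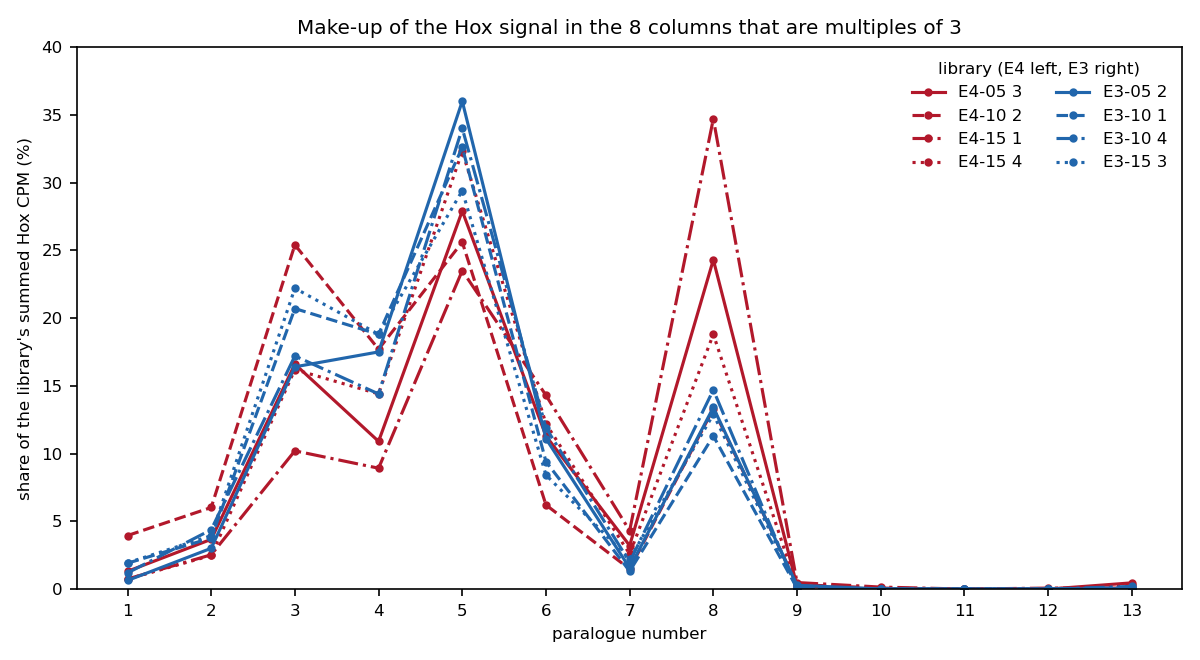
Share of each library's summed Hox CPM (%) by paralogue number in the 8 multiples of 3, with E4 libraries in red and E3 libraries in blue, and one line per library. Shares peak at number 5 in 7 libraries and at number 8 in E4-15 1 (34.7%), and fall to under 0.5% from number 9 on.

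The rostral members varied alongside 1 of the marker genes of medulla neurons, Slc6a5, from library to library. The summed CPM of paralogues 1 to 5 was 106 in E3-05 2, 42.7 in E4-05 3, 224 in E3-10 1, 37.2 in E4-10 2, 25.3 in E3-10 4, 24.0 in E4-15 1, 75.2 in E3-15 3 and 24.9 in E4-15 4. Slc6a5 in the same order was at 201, 139.6, 622, 176, 98.6, 79.4, 246 and 76.2 CPM, and the ratio of the sum to Slc6a5 stayed between 0.211 and 0.525. Gabra6, a GABA receptor gene that granule cells of the cerebellum use, was at 388, 364, 85.5, 219, 435, 533, 348 and 495 CPM, lowest in E3-10 1, where the Hox sum was highest. These are 8 libraries that share 1 set of tissue differences, and the values are given as a description.

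**Figure D4:**
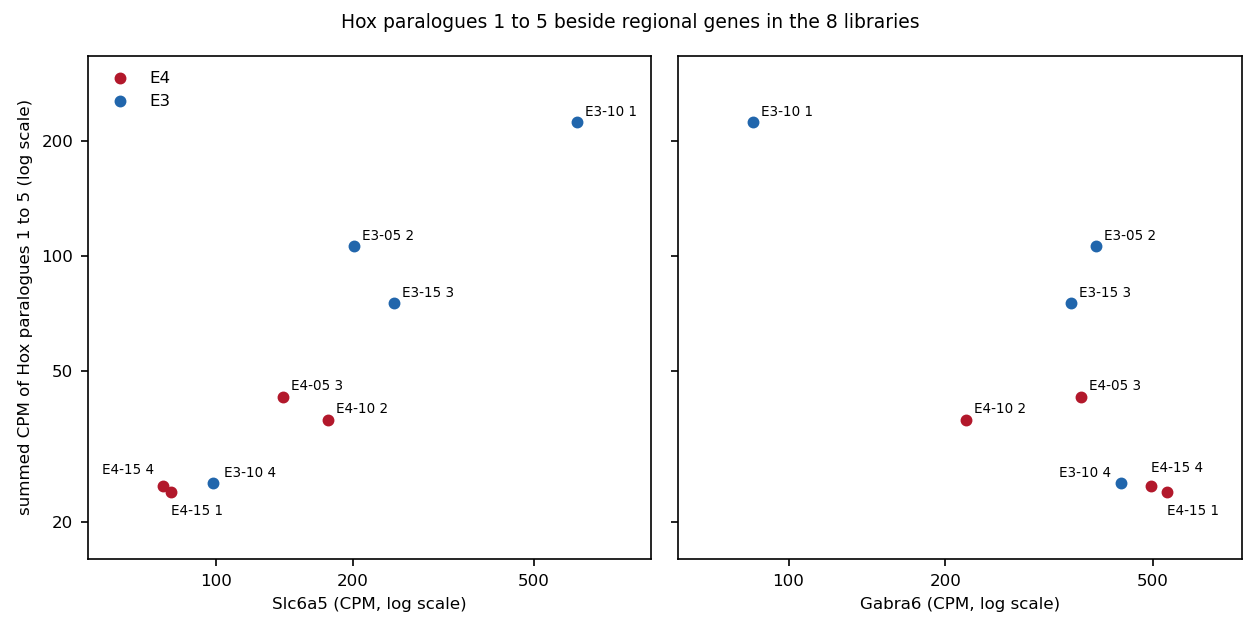
Summed CPM of Hox paralogues 1 to 5 (vertical, log scale) against Slc6a5 (left panel) and Gabra6 (right panel), both in CPM on log scales, in the 8 multiples of 3, with E4 in red and E3 in blue. E3-10 1, at 224 CPM, has the highest Slc6a5 (622 CPM) and the lowest Gabra6 (85.5 CPM).

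The labelled comparisons gave no Hox call. For E4 minus E3 averaged over time codes, 0 of 21 members passed at an adjusted p under 0.05 in edgeR, as did 0% of all genes, and DESeq2 called 0 members. At an unadjusted p under 0.05 there were 9 of 21 members, against 2.73% of all genes, and the members' median log2 was -1.12. For time code 15 minus 05, 0 of 21 members passed, against 0.0538% of all genes, and DESeq2 called 0. At an unadjusted p under 0.05 there were 0 members, against 4.56% of all genes, and the median log2 was -0.60. Both comparisons include the 16 libraries in which members had few or no counts.

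Among the 8 libraries alone, the fitted value of E4 minus E3 was below 0 for all 21 members, none passed the test, and the E4 and E3 ranges overlapped for each of them. In a fit to these 8 (4 E4 and 4 E3, E code the only term), 0 of 21 members passed at an adjusted p under 0.05 (0% of all genes did). The members' smallest adjusted p was 0.798 in edgeR and 0.11 in DESeq2, which also called 0. At an unadjusted p under 0.05, 12 of 21 were lower, where 2.97% of all genes were. The 21 log2 values ran from -2.12 to -0.27 with a median of -1.61, beside 0.02 for all genes. Hoxb5 averaged 6.79 ± 1.59 CPM in the E4 libraries and 24.1 ± 18.1 CPM in the E3 libraries (SD, n = 4 each; log2 -1.82, SE 0.51, edgeR's adjusted p = 0.798). Hoxc4 averaged 2.70 ± 0.568 CPM in E4 and 10.5 ± 8.04 CPM in E3 (log2 -1.95, SE 0.57). Hoxb8 averaged 11.9 ± 6.18 CPM in E4 and 17.0 ± 11.4 CPM in E3 (log2 -0.51, SE 0.52). By position, the 14 members numbered 1 to 5 had a median of -1.69, and the 7 numbered 6 to 8 had a median of -0.73; whether these medians differ was not tested.

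**Figure D5:**
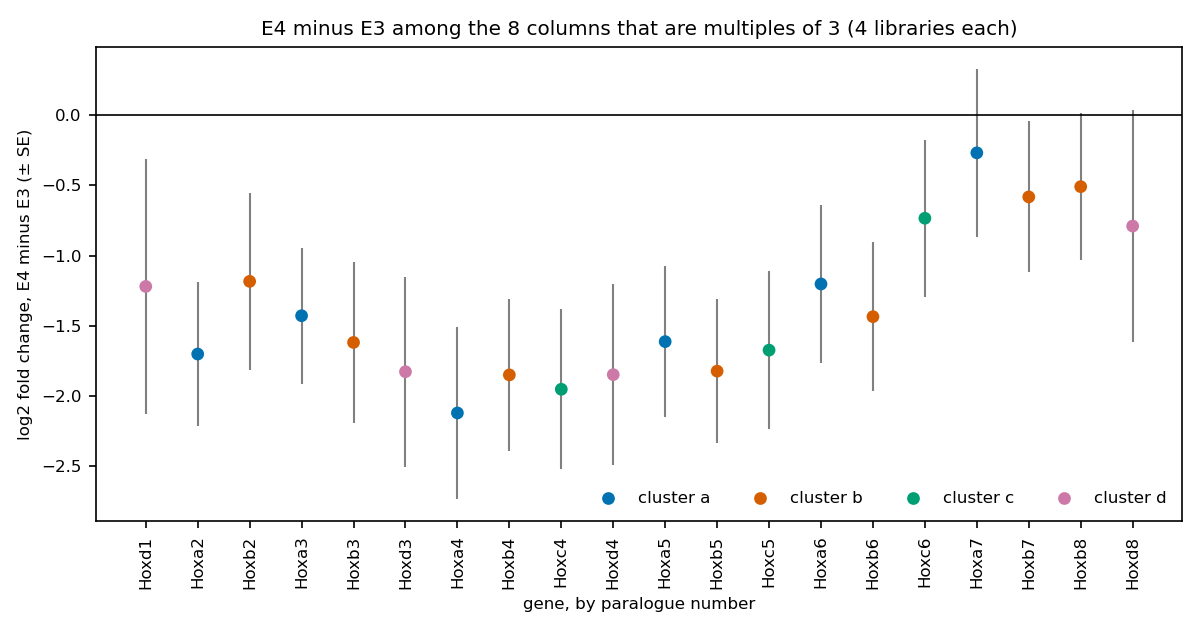
Log2 fold change (± SE) of E4 minus E3 for 20 of the 21 tested Hox genes among the 8 multiples of 3 (4 libraries per E code), ordered by paralogue number and coloured by cluster. All 20 points lie below 0, from -2.12 (Hoxa4) to -0.27 (Hoxa7), and 0 passed the adjusted threshold.

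Summed levels of the regional lists also differed between the E codes among the same 8 libraries, with overlapping ranges. The summed pons and medulla list was at 146, 241 and 337 CPM (lowest, median and highest) in the 4 E4 libraries and at 216, 427 and 1027 CPM in the 4 E3 libraries, and 17 of its 21 genes had negative log2 values, with a median of -0.86. The cerebellum list was at 3105, 5900 and 6794 CPM in E4 and at 1475, 5040 and 5609 CPM in E3. All 14 forebrain and midbrain genes had positive log2 values, with a median of 1.33, and their sum was at 50.1, 112 and 169.6 CPM in E4 and at 36.7, 86.2 and 116 CPM in E3. All 7 pituitary genes were positive too, with a median log2 of 6.34; their sum was at 9.00, 58.1 and 7304 CPM in E4, the highest in E4-10 2, and at 5.50, 18.6 and 51.2 CPM in E3. Without E4-10 2 the Hox median was -1.76. None of these genes passed at an adjusted p under 0.05 in edgeR. Slc6a5 had a log2 of -1.30 (SE 0.51) and Glra1, a glycine receptor subunit, one of -1.59 (SE 0.47). The part of these regional differences in the Hox values was not tested. One library carried much of the size: without E3-10 1 the members' median was -0.94, and 20 of 21 values were negative.

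Non-coding genes of the clusters followed their neighbours in part. Hoxaas2, an antisense gene of cluster a, had 446 counts in the 8 libraries and 4 in the 16 (log2 7.20, SE 0.57, adjusted p = 1.26e-09). Hotairm1, another non-coding gene of cluster a, had 362 counts in the 8 and 89 in the 16 (log2 2.90, SE 0.53, adjusted p = 8.32e-05). Hoxb3os had 115 counts in the 8 and 0 in the 16, and Hottip, at the 5′ end of cluster a, had 0 in both. Of the 21 tested members, 9 overlap exons on the opposite strand and 5 overlap exons on the same strand. The strand setting of the counting is not stated, so reads of these pairs cannot be told apart.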

How the data were processed

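The authors deposited raw counts by gene symbol, as 1 table of 40836 genes and 24 columns; per the submitters' processing notes, the authors aligned with HISAT2 2.1.0 to mm39 and counted with featureCounts 2.0.6. The annotation, the strand setting and how read pairs were counted are not given in the sources used here. Per library, 62.6% to 70.8% of the counts from 1 to 19 were even, which is how pairs counted as 2 reads look, so counts overstate fragments. Per the labels, total RNA came from a TRIzol extraction and sequencing was on a NovaSeq; columns were joined to libraries by the number in each label.

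Counts were fitted with edgeR 4.0.16 (limma 3.58.1, R 4.3.3): TMM factors, filterByExpr over the 6 groups (20437 genes), 6 group coefficients plus a term for the multiples of 3 (17 residual degrees of freedom), quasi-likelihood F tests and Benjamini-Hochberg adjustment over all genes tested. E4 minus E3 within the 8 multiples of 3 was fitted apart (6 residual degrees of freedom). The scripts were tested on simulated data. Titles number the libraries as biological replicates, but no label ties them to separate animals, so p-values measure the spread among these libraries only. Alternatives were RLE factors, no filter, a filter of 1 CPM in 8 libraries, DESeq2 1.42.0, other detection levels, a replicate block and leaving out each library; leaving out blood-rich or pituitary-rich libraries was added after seeing the data.

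The members and all gene lists were chosen with earlier results of these data known. Values are given for the member with the highest mean CPM over all 24 libraries at each paralogue number, the 2 most and 2 least abundant members that passed the filter, and up to 4 genes per other list with the highest mean CPM. Other named members were chosen after their values were seen, as were Asxl1, Meis1, Mnx1, Gabra6, Slc6a4 and the non-coding genes. Some genes among the members and lists entered the counts, sums and fits and are not reported here by name.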

Additional observations from a re-analysis of the deposited data

Results flagged for a closer look

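In E3-10 1, 10 of the 20 members examined were higher than in the other 7 multiples of 3 by a gap to the next library that exceeded Dixon's limit for 8 values. In all, 21 quantities were examined, and all of them share this 1 library. By chance the limit flags about 1 in 20 groups of normally distributed values. The values here were CPM and were not examined on a log scale, so that rate may not hold for them. Of paralogues 1 and 2, Hoxa2 was at 4.95 CPM there (2.03 in the next library), Hoxb2 at 5.89 (2.30) and Hoxd1 at 3.95 (1.61). Of paralogue 3, Hoxb3 was at 28.4 CPM (11.1 in the next) and Hoxd3 at 21.5 (8.41). Of paralogues 4 and 5, Hoxa4 was at 15.9 CPM (7.04 in the next), Hoxb4 at 9.56 (4.42), Hoxc4 at 21.1 (10.8), Hoxd4 at 7.57 (2.87) and Hoxa5 at 35.0 (17.3). The summed CPM of all members was 288, against 144 in E3-05 2. No member numbered 6 to 8 met this limit. E3-10 1 also had the highest Slc6a5 (622 CPM) and the lowest Gabra6 (85.5 CPM) of the 8, and their part in these values was not tested.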

How the results depend on the processing

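In the comparison of the multiples of 3 with the other columns, 10 members passed with the filter of 1 CPM in 8 libraries, because that filter tests fewer members, and 23 passed with no filter. Leaving out each library in turn gave 21 members in all 24 fits, and 0 throughout for the labelled comparisons; over all alternatives the members' log2 values ran from 2.05 to 10.67 with a largest adjusted p of 0.00552. The most caudal paralogue number detected was 9 at 0.1 CPM, and 8 at 0.5 and 1 CPM. Among the 8 multiples of 3, Hoxa7 had a log2 of 0.40 (E4 minus E3) without E3-10 replicate 1, against -0.27 with all 8 and -0.63 without E4-05 replicate 3 (the ends of its leave-one-out range), the only sign change among the members' alternatives in that comparison; the cause was not tested. With library numbers as a replicate block, 21 members passed in the comparison of columns and 0 in each labelled comparison. Pooled over all groups, shared numbers showed no pairing of libraries. The median correlation of residuals was -0.015 over 60 pairs with a shared number and 0.013 over 180 others. Of the 24 libraries, 4 correlated best with their own number. These pairs mix time codes, and pairing of E4 with E3 within a time code was not tested apart. Depth limits paralogues 9 to 13, whose highest count in 1 library was 20; members at a few counts cannot be told from absent.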
